A study of Mus musculus with 14 samples.

Results

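The loci described here are annotated small nucleolar RNA (snoRNA) genes that the deposited tables of non-coding RNA list under the symbol of another gene, or under no symbol, and not under Snord, Snora or Scarna. They were taken by that rule from the table of the chromatoid body preparation and the table of sorted round spermatids, and matched by Ensembl gene identifier. The rule gave 446 loci of 492 snoRNA loci and of 1788 loci of all non-coding types, with 198 of them listed in the chromatoid body table and 365 in the round spermatid table. Of the 446 loci, 117 stood in both tables, 81 in the chromatoid body table alone and 248 in the round spermatid table alone. The shared loci were 59.1% of those in the chromatoid body table, against 57.9% over all non-coding types. They were 32.1% of those in the round spermatid table, against 48% over all types. A locus missing from a table had a value under 5 FPKM (fragments counted at a locus, scaled to its length in kilobases and to the mapped fragments of the library) or was not listed for another reason, so absence is not a measured 0.

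The study followed RNA through the purification of the chromatoid body, the cytoplasmic RNA granule of male germ cells, from testes of C57BL/6 mice aged at least 6 weeks. The groups used were an immunoprecipitate with an antibody to the germ cell RNA helicase MVH (MVH IP, 3 libraries), the second pellet that served as its input (pellet2, 1 library), the first pellet (pellet1, 1 library), the soluble supernatant (1 library) and the whole testis lysate (1 library), all from tubule cells fixed with formaldehyde. Sorted round spermatids came from the same strain and age (2 libraries, 1 of them made from RNA above 500 bp), and the library of round spermatids named hetMIWI was a further sorted sample, with no genotype beyond its name. The submitters deposited 1 value per feature and condition, so no replicate spread exists, every fold below is a description without a test, and n is the number of loci. Total counts per library were not analysed here, and the depth behind each value is unknown. A control immunoprecipitation with IgG and another with an acrosin antibody were also part of the study, and their values were not analysed here. Because these are bulk samples, fewer cells of a type and less RNA per cell cannot be told apart.

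SnoRNAs are short nuclear RNAs that guide chemical modification of ribosomal and spliceosomal RNA. Those of the C/D class carry a box C near the 5′ end and a box D near the 3′ end, are bound by fibrillarin, NOP56, NOP58 and the 15.5K protein, and direct 2′-O-methylation. Those of the H/ACA class carry an H box between their hairpins and an ACA at the 3′ end, are bound by dyskerin, GAR1, NHP2 and NOP10, and direct pseudouridylation. In mammals most are cut out of introns of host genes, many of which encode ribosomal proteins or other parts of the translation machinery, while U3, a C/D RNA needed for cleavage of the ribosomal RNA precursor, is made from genes of its own.

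A second annotation, GENCODE M21, held 273 of the 446 identifiers and gave no match for 173. Of the 273, 94 lay in an intron of a longer gene on the same strand, 29 overlapped an exon of at least 1 transcript of such a gene, 23 lay on the strand opposite a gene and 127 lay outside longer genes. The label "inside a host gene" therefore held for 123 of the 273, in 112 hosts, and the symbol in the tables was that of the host, as spelled, for 57 of them. Of the 70 loci with no symbol, 58 were matched and 49 of these lay inside a host, among them the snoRNAs of the ribosomal protein genes Rpl23a, Rpl32, Rpl7a and Rpl4. Loci outside genes often carried the symbol of a gene that does not contain them, such as Rtf1, Calm2 or Hyal5. GENCODE gave 36 loci a Snord, Snora or Scarna name of their own (21 Snord, 11 Snora and 4 Scarna). The loci fell into 6 classes by the symbol in the tables, position and sequence. In host genes lay 120, and 142 formed a tandem array on chromosome 7, taken by symbol. Outside hosts lay 80 copies whose closest named snoRNA was Snora17, and 68 others. The rest were 6 U3 loci, taken by an Rnu3 symbol, and 30 more without a GENCODE match.

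Sequences of loci on which the results turn are given 5′ to 3′ as GENCODE M21 transcripts, matched by identifier. In C/D type loci the capitals mark the first TGATG in the first part of the RNA, the core of box C, and the last CTGA, the letters of box D. In H/ACA type loci they mark the ANANNA nearest the middle, the letters of an H box, and an ACA 3 bases before the 3′ end. The first set holds C/D loci in hosts, and Snord104, which lay outside hosts.
Gm24494 in Rabggtb: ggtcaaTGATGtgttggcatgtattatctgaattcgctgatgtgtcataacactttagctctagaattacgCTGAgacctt
Snord37 in Eef2: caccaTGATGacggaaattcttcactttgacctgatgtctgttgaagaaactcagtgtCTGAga
Gm23008 in Ppan: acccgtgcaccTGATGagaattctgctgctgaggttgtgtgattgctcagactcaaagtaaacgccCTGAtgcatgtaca
Snord104: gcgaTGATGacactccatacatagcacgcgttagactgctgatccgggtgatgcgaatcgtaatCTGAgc
Snord14a in Rps13: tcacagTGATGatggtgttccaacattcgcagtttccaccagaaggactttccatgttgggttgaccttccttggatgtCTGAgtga
Snord67 in Ckap5: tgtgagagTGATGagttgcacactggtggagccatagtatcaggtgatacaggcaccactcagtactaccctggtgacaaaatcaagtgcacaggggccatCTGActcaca

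The second set holds a pair of loci from 1 host, Nop58, whose values went opposite ways between the tables. Their sequences were 83.9% identical, with 14 edits over 84 and 87 bases.
Snord70: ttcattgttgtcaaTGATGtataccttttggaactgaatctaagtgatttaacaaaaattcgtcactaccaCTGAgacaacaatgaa
Gm26293: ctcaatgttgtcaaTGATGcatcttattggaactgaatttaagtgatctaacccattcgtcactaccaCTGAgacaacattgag

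The third set holds H/ACA loci, Snora33 inside Rps12 beside Gm26326, a copy outside genes that was 91.5% identical to it and had the same value in the MVH IP table, and Snora34 of Kansl2.
Snora33: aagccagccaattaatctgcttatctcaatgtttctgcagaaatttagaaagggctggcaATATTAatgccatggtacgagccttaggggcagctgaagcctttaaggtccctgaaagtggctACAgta
Gm26326: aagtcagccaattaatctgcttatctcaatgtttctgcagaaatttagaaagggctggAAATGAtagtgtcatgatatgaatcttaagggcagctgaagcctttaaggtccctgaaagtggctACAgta
Snora34: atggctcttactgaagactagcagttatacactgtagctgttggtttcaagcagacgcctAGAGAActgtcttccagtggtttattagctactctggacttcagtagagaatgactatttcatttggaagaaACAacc

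The fourth set shows 1 of the dispersed copies, Gm22267, beside the named snoRNA closest to it, Snora17 (82.6% identical), and 1 locus of the chromosome 7 array. Neither Gm22267 nor Snora17 held ACA exactly 3 bases before its end.
Gm22267: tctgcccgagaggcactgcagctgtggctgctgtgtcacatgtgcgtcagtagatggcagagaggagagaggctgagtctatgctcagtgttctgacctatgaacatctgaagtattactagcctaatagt
Snora17: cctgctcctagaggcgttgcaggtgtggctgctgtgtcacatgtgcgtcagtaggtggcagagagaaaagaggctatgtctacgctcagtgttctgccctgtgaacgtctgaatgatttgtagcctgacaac
Gm23254: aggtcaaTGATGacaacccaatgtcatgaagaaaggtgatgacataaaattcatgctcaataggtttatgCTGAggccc

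Box letters went with length in the 123 loci inside hosts, which here include 3 array loci inside Snhg14. Among 41 host loci under 100 bases, 27 (65.9%) held TGATGA anywhere together with CTGA in the last 20 bases, and 37 (90.2%) held the shorter TGATG in the first part of the RNA with the same CTGA. Among 82 host loci of 100 bases or more, 46 (56.1%) held ACA 3 bases before the end. The pair TGATGA and CTGA was found in 23.0% of all 1558 GENCODE snoRNA and scaRNA transcripts and in 0.0723% of 1383 snRNA transcripts, and ACA at that place in 19.3% and 0.94% of them. The letters ANANNA were present in 93.4% of the 273 loci and in 94.8% of snRNA transcripts. Only the transcribed strand was searched, and the letters of different boxes may overlap. None of the 80 Snora17-like copies outside hosts held the ACA at that place or the pair of C and D letters, a statement about these letters in these windows only.

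The loci took a large part of the deposited non-coding signal. They made up 53.6% of the summed FPKM of the MVH IP table and 40.4% of that of the round spermatid table, and the 10 highest of them in each table gave 41.7% of the MVH IP sum and 30.4% of the round spermatid sum. Most loci were low, with a median of 78 FPKM in the MVH IP (range 5.06 to 269399) and 20.9 FPKM in round spermatids (range 5.06 to 117205). The loci kept a similar order in both preparations, with a Spearman's rho of 0.89 over the 117 loci listed in both (across loci, which share libraries and are not replicates), and 17 of the 20 highest loci were the same.

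Most of the abundant loci lay in introns of widely expressed genes. Gm24494, in an intron of Rabggtb (the beta subunit of Rab geranylgeranyl transferase; mm9 chr3:153574574-153574654, minus strand), had 269399 FPKM in the MVH IP and 76642 FPKM in round spermatids, a log2 ratio of 1.81. The Rpl17 gene, which encodes a protein of the large ribosomal subunit, carried 3 loci on chromosome 18. Its Gm26202 had 166008 FPKM in the MVH IP and 117205 FPKM in round spermatids, Gm23301 had 102556 FPKM in the MVH IP and 60217 FPKM in round spermatids, and Snord58b had 26865 FPKM in the MVH IP and 24305 FPKM in round spermatids. All 3 stayed within 2-fold of their round spermatid values, with log2 ratios of 0.50, 0.77 and 0.14. Snord37, in an intron of the elongation factor gene Eef2 (mm9 chr10:80641695-80641758, plus strand), had 80085 FPKM in the MVH IP and 29131 FPKM in round spermatids. Scarna9, a guide RNA of Cajal bodies in an intron of Cep295, had 55801 FPKM in the MVH IP and 31737 FPKM in round spermatids. Snord8, in an intron of the chromatin remodeller gene Chd8, had 41689 FPKM in the MVH IP and 23006 FPKM in round spermatids.

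Several others stood higher by more than 2-fold in the MVH IP. Snord104, outside longer genes on chromosome 11 (mm9 chr11:106362307-106362376, plus strand), had 83798 FPKM in the MVH IP and 20722 FPKM in round spermatids, a log2 ratio of 2.02. Gm23008, in Ppan, a gene of ribosome biogenesis (mm9 chr9:20695201-20695280, plus strand), had 34484 FPKM in the MVH IP and 5956 FPKM in round spermatids, a log2 ratio of 2.53. Snord71, in an intron of the clathrin adaptor gene Ap1g1, had 34267 FPKM in the MVH IP and 9668 FPKM in round spermatids, a log2 ratio of 1.83. A set of 3 loci of 72 bases on chromosome 9 had no GENCODE match. The one carrying the symbol Snhg5 had 54752 FPKM in the MVH IP and 11292 FPKM in round spermatids, the one carrying Gm9775 had 56261 FPKM in the MVH IP and 11455 FPKM in round spermatids, and the one carrying Gm2372 had 30274 FPKM in the MVH IP and 6386 FPKM in round spermatids. Their log2 ratios lay close together, at 2.28, 2.30 and 2.24. Gm22354, outside genes on chromosome 14 and 94.3% identical to Snord58b of chromosome 18, had 22282 FPKM in the MVH IP and 19785 FPKM in round spermatids.

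**Figure D1:**
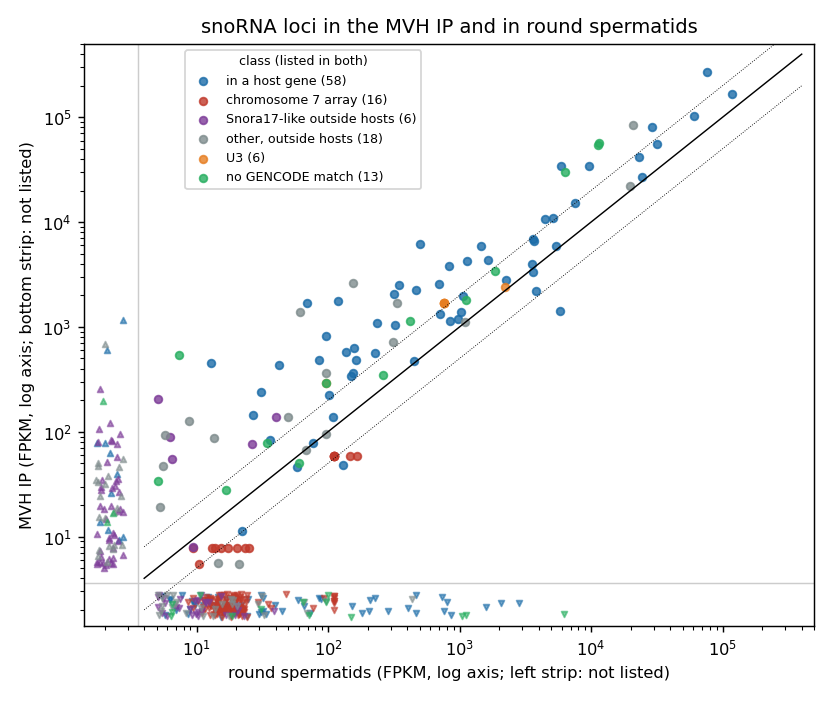
Values of the 446 loci in the MVH IP (vertical, FPKM, log axis) and in round spermatids (horizontal, FPKM, log axis), coloured by class, with loci listed in 1 table alone in the strips at the left and bottom. The solid line marks equal values and the dotted lines 2-fold; the abundant host loci run from the line to above it, and the 16 array loci listed in both tables lie below it.

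Between the MVH IP and round spermatids, 63 of the 117 shared loci were at least 2-fold higher in the MVH IP and 10 at least 2-fold lower, on log2(FPKM + 1). Over all 636 non-coding loci listed in both tables, 47% were called higher and 19.8% lower, so the share of higher loci (53.8%) was near the background, and the share of lower loci (8.55%) was below it. The median log2 ratio was 1.14 for these loci, 0.84 for all 636 loci, 1.27 for 29 loci named Snord, Snora or Scarna, 1.73 for 123 microRNA loci, 2.74 for 99 lincRNA loci, −0.20 for 34 rRNA loci and −0.29 for 234 snRNA loci. The snoRNA loci under host or no symbols thus stood close to the named snoRNA loci and above snRNA loci, with no test possible. The 2 tables were scaled apart from each other, and centred on the median of all loci the counts were 37 higher and 25 lower. The round spermatid values pool a library of RNA above 500 bp, and the longest of the 117 loci had 343 bases, so the part of that library in the ratios was not tested. The round spermatid table gave an interval wider than 350 bases for 137 of its 365 loci, among them 102 of 109 loci in host genes. Loci given the same interval could differ in value, as the 3 of Rpl17 did (117205, 60217 and 24305 FPKM). Others shared 1 value, as Rnu3b1 to Rnu3b4 did. Values at wide intervals may cover the surrounding transcript as well as the snoRNA, and how far they do was not tested.

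The chromosome 7 array stood apart from the other classes. In host genes, 33 of 58 loci were higher in the MVH IP, 2 lower and 23 within 2-fold (median log2 ratio 1.19). In the chromosome 7 array, none of 16 was higher and 6 were lower (median −0.93, range −1.55 to −0.23). Of the Snora17-like copies outside hosts, 5 of 6 were higher (median 2.32), and of the other loci outside hosts 12 of 18 were higher and 2 lower (median 1.79). Of the 6 U3 loci, 5 were higher (median 1.14), and of the loci without a GENCODE match 8 of 13 were higher and none lower (median 1.44).

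**Figure D2:**
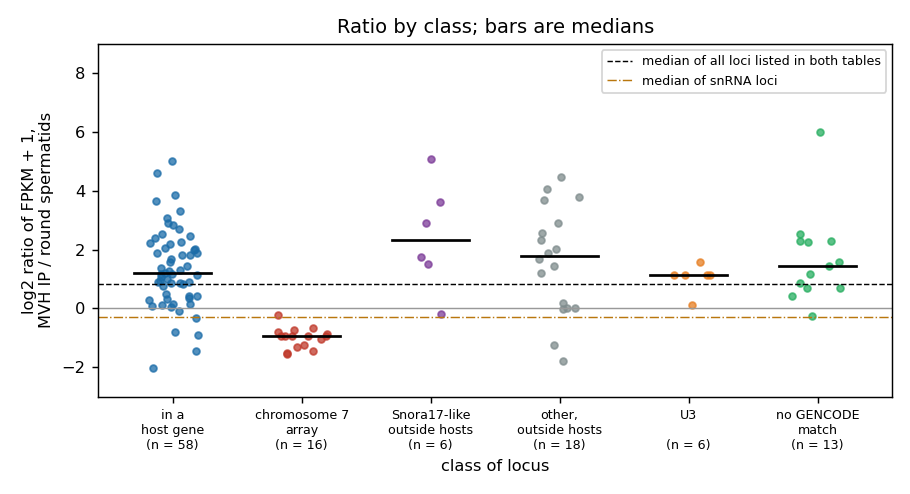
Log2 ratio of FPKM + 1, MVH IP over round spermatids, for the 117 loci listed in both tables, by class; each point is 1 locus and each bar the class median. The array class lies wholly below 0 (median −0.93), while the other 5 medians lie between 1.14 and 2.32, above the dashed median of all loci (0.84) and that of snRNA loci (−0.29).

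The largest ratios belonged to loci of 129 to 134 bases. Those of the locus carrying Gm3839 and of Gm26005 rest on round spermatid values close to the 5 FPKM limit, so their size is uncertain. The locus carrying Gm3839 on chromosome 14 had 538 FPKM in the MVH IP and 7.35 FPKM in round spermatids, a log2 ratio of 6.01. Gm26005, a Snora17-like copy listed under the calmodulin gene Calm2, had 208 FPKM in the MVH IP and 5.09 FPKM in round spermatids, a log2 ratio of 5.10. Gm26205, in the ribosomal protein gene Rpl6, had 449 FPKM in the MVH IP and 12.9 FPKM in round spermatids, a log2 ratio of 5.02. Gm26205 overlaps an exon of Rpl6, and reads of exon and snoRNA cannot be told apart. Gm24698, in Champ1, a gene of chromosome alignment, had 1706 FPKM in the MVH IP and 69.1 FPKM in round spermatids, a log2 ratio of 4.61. Gm25857, outside genes and listed under the transcription elongation gene Rtf1, had 1385 FPKM in the MVH IP and 61.4 FPKM in round spermatids, a log2 ratio of 4.47. The last 2 were close to named H/ACA RNAs, Gm24698 to Snora3 (94.7% identical) and Gm25857 to Snora44 (88.4% identical).

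The smallest ratio was found inside Nop58, whose protein is a core component of C/D particles. Gm26293 had 1414 FPKM in the MVH IP and 5830 FPKM in round spermatids, a log2 ratio of −2.04. Its neighbour Snord70 (mm9 chr1, same host) had 10816 FPKM in the MVH IP and 4445 FPKM in round spermatids, a log2 ratio of 1.28. The third locus of Nop58, Gm26287, was listed in round spermatids at 733 FPKM and not in the MVH IP. The Nop58 gene itself had 77.4 FPKM in the MVH IP and 7.98 FPKM in round spermatids, so 3 loci of 1 host and the host differed in size and direction. Gm26293 overlaps an exon of at least 1 Nop58 transcript, and reads of exon and snoRNA cannot be told apart. The next lowest loci were Gm22890, listed under Parvb (5.43 FPKM in the MVH IP and 21.2 FPKM in round spermatids, −1.79), and 3 loci of the chromosome 7 array (−1.55, −1.50 and −1.46).

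The ratio of a snoRNA and that of its host were often far apart. For 25 loci in 22 hosts, locus and host were both listed in both preparations, and the locus ratio exceeded the host ratio in 12. Spearman's rho between the 2 ratios was −0.16 across the 25 loci (libraries shared, several loci from 1 host). At the hosts, 12 of 22 genes were at least 2-fold higher in the MVH IP and none lower, against 75.4% and 0.545% of all 3855 genes listed in both gene tables, and their median log2 ratio was 1.06 against 1.85 for all those genes. Snord14a had 6212 FPKM in the MVH IP and 497 FPKM in round spermatids (log2 ratio 3.64), while its host Rps13, a small-subunit ribosomal protein gene, had 45.9 FPKM in the MVH IP and 32.7 FPKM in round spermatids (0.47). Gm24920 went the other way, with 3948 FPKM in the MVH IP and 3541 FPKM in round spermatids (0.16), while its host Pip5k1a, a phosphoinositide kinase gene, had 120 FPKM in the MVH IP and 5.65 FPKM in round spermatids (4.19). Snord37 was higher (1.46) while Eef2 was within 2-fold, at 97.3 FPKM in the MVH IP and 146 FPKM in round spermatids (−0.58). Snord67 and its host Ckap5, a microtubule polymerase gene, were both higher, with 1760 FPKM in the MVH IP and 120 FPKM in round spermatids for the snoRNA (3.86), and 224 FPKM in the MVH IP and 21 FPKM in round spermatids for the host (3.36). Snord14a overlaps an exon of Rps13 and Snord67 an exon of Ckap5, and there too reads of exon and snoRNA cannot be told apart.

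By kind of host, 21 loci lay in 18 ribosomal protein genes (Snord35a, which lies in both Rpl13a and the overlapping Gm45713, was counted under Gm45713), and the 17 of these listed in both tables had a median log2 ratio of 1.88. The 38 shared loci of hosts that were neither ribosomal protein nor Snhg genes had a median of 1.11. Loci in ribosomal protein genes had a median of 2196 FPKM in the MVH IP and 693 FPKM in round spermatids, and those of the other hosts 1154 FPKM in the MVH IP and 131 FPKM in round spermatids. Short and long host loci differed in level, with medians of 6637 FPKM in the MVH IP and 1617 FPKM in round spermatids under 100 bases, against 478 FPKM in the MVH IP and 69.1 FPKM in round spermatids from 100 bases upward. Values per length are poorly defined for RNAs shorter than the cut fragments (350 to 500 bp on the gel), so levels of short and long loci are not on a firm common scale.

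The 6 U3 loci gave an example of values shared between gene copies. Rnu3a on chromosome 10 had 2407 FPKM in the MVH IP and 2206 FPKM in round spermatids. Rnu3b1, Rnu3b2, Rnu3b3 and Rnu3b4, on chromosome 11, all had the same 1694 FPKM in the MVH IP and the same 768 FPKM in round spermatids, where the table gave them 1 shared interval. The pseudogene Rnu3b-ps1 on chromosome 19 had 292 FPKM in the MVH IP and 97.3 FPKM in round spermatids, and the locus carrying the symbol Gip had the same 292 FPKM in the MVH IP and 97.1 FPKM in round spermatids. In all, 31 of 198 loci in the MVH IP and 46 of 365 in round spermatids shared their value exactly with at least 1 other, and such loci cannot be counted as separate measurements. Counted once per pair of values, 60 loci were higher and 10 lower. Gm26326 and its host-borne relative Snora33 shared 361 FPKM in the MVH IP, but had 97 and 156 FPKM in round spermatids.

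Near-copies of named snoRNAs made up most of the abundant loci outside hosts. Of the 68 other loci outside hosts, 12 reached 100 FPKM in at least 1 table, and 9 of these 12 were at least 85% identical to a named snoRNA, against 3 of the 56 lower ones. Gm25133, listed under Atxn8os and 98.5% identical to Snora30, had 2603 FPKM in the MVH IP and 154 FPKM in round spermatids. Gm22519, listed under Fam135b and 98.9% identical to Snora81, had 713 FPKM in the MVH IP and 311 FPKM in round spermatids. Gm24253, 96.1% identical to Snord1c, had 1121 FPKM in the MVH IP and 1100 FPKM in round spermatids. Where copies are this close, reads from 1 can be counted at another, and the values of copy and parent are uncertain to that extent.

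The Snora17-like copies were many and low. In all 89 loci had Snora17 as their closest named snoRNA at 70% identity or more (range 70.5% to 85.6%), spread over 20 chromosomes, with 80 outside host genes and 9 inside. Of the 89, 56 were listed in the MVH IP at 5.06 to 258 FPKM (median 17.9) and 39 in round spermatids at 5.06 to 40.3 FPKM (median 9.97), but only 6 in both. The highest was Gm22609, listed under Nfasc, with 258 FPKM in the MVH IP and no listing in round spermatids. Gm22267, listed under the hyaluronidase gene Hyal5, had 89.6 FPKM in the MVH IP and 6.28 FPKM in round spermatids. Snora17 itself was listed in neither table. The 6 shared loci of 89 stand beside 58 shared of 120 host loci. With medians this close to the 5 FPKM limit, listing in 1 table alone does not show a difference in level.

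The chromosome 7 array was listed almost entirely in round spermatids. It held 142 loci over 434 kb (mm9 chr7:66602707-67037090), the 16 loci of known strand all on the minus strand, and 16 (11.3%) were listed in the MVH IP and all 142 in round spermatids. Of the other loci listed in round spermatids, 101 of 223 (45.3%) were also listed in the MVH IP. The array loci were lower in round spermatids, with a median of 18.7 FPKM against 44.8 FPKM for the other loci. With array values this close to the 5 FPKM limit, a missing listing does not show absence from the MVH IP. These genes lie beside Ipw, an imprinted transcript expressed from the paternal chromosome in the region that matches the human Prader-Willi domain. Of the 125 loci carrying A230103L15Rik, 120 of them 79 bases long, 9 were listed in the MVH IP, 8 of these at the same 7.82 FPKM and 1 at 5.53 FPKM. In round spermatids all 125 were listed, at 8.57 to 93.2 FPKM (median 18.2). The 8 loci carrying Ipw, 6 carrying Gm20231 and 3 carrying Gm7339 were 94 bases long. Of these 17, 7 were listed in the MVH IP, all at 58.1 FPKM, and 12 shared 1 value of 111 FPKM in round spermatids. All 16 loci in both tables were lower in the MVH IP than in round spermatids. Few of the MVH IP values are separate measurements, since the 16 took 3 distinct levels, while the 142 in round spermatids took 123. Without the array, 63 of 101 shared loci were higher and 4 lower.

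**Figure D3:**
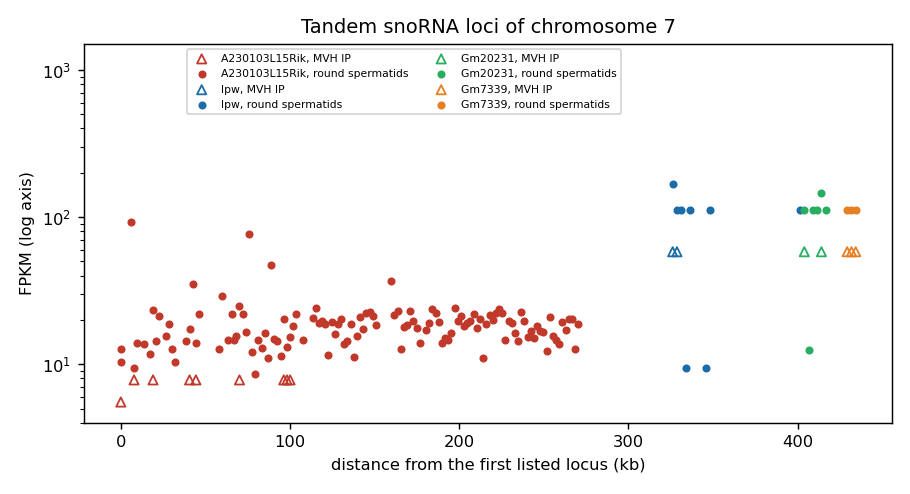
FPKM (log axis) of the 142 array loci against distance from the first listed locus in kb, open triangles for the MVH IP and filled points for round spermatids, coloured by the symbol in the tables. The A230103L15Rik loci reach at most 7.82 FPKM in the MVH IP and lie between 8.57 and 93.2 FPKM in round spermatids over the first 270 kb, and the 94-base loci beyond them repeat the values 58.1 FPKM in the MVH IP and, for 12 of 17, 111 FPKM in round spermatids.

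A separate table, in which the submitters scaled lysate, supernatant, pellet1, pellet2 and MVH IP together, held a row of its own for 35 of the 446 loci, found by GENCODE name at the same place in mm9. These were 20 Snord, 9 Snora and 4 Scarna loci, Rnu73b and Mir3068. Along the purification most were lower in the supernatant than in the lysate, highest in a pellet, and lower again in the MVH IP. Of 30 above 0 in lysate and supernatant, 28 were lower in the supernatant by any amount, against 8248 of 17361 genes tested. The highest value stood in pellet1 for 32 of the 35 and in pellet2 for the other 3, and none was highest in lysate, supernatant or MVH IP. The share of all genes with their highest value in a pellet was not counted.

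Snord37 had 273821 FPKM in the lysate, 128032 in the supernatant, 1813130 in pellet1, 1159280 in pellet2 and 169245 in the MVH IP. Snord58b had 314040 FPKM in the lysate, 104622 in the supernatant, 6024400 in pellet1, 3415580 in pellet2 and 156402 in the MVH IP. Both were highest in pellet1. FPKM is poorly defined for RNAs this much shorter than the fragments sequenced. How far this also affects ratios of the same RNA between fractions was not tested. Scarna9 had 256724 FPKM in the lysate, 154556 in the supernatant, 2021780 in pellet1, 1578060 in pellet2 and 269696 in the MVH IP. Snord104 had 144784 FPKM in the lysate, 64652 in the supernatant, 922605 in pellet1, 374824 in pellet2 and 126605 in the MVH IP. The low Snora75 of Ncl, the nucleolin gene, kept the same order up to pellet2, with 3579 FPKM in the lysate, 1636 in the supernatant, 21242 in pellet1, 9748 in pellet2 and 89.4 in the MVH IP.

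Counts were taken over the loci with values above 0 in both conditions. In pellet1, 31 of 32 were at least 2-fold above the lysate and none below, where 18.3% of all 17163 genes tested were higher and 11.8% lower, and the median log2 ratio was 2.81 against 0.04 for all genes. In pellet2, 25 of 30 were higher and none lower, against 16.1% and 7.16% of all genes, with a median of 1.80 against 0.12. In the supernatant, 17 of 30 were lower than in the lysate and none higher, against 1.98% lower and 2.75% higher among all genes, with a median of −1.11 against 0.02. In the MVH IP, 23 of 26 were lower than in pellet2 and none higher, against 4.87% lower and 40.7% higher among all genes, and the median was −2.28 against 0.80. Against the lysate the MVH IP had 3 of 26 loci higher (50.4% of all genes) and 8 lower (6%), with a median of −0.20 against 1.01 for all genes. Centred on the median of all genes 16 loci were lower, and with loci listed at 0 kept 14 were. These comparisons share their lysate, pellet2 and MVH IP values, and are not separate measurements. In the authors' deposited table, the q-value for pellet1 against the lysate was 0.05 or less for 15 of 34 loci, all higher, where 1.67% of all genes were called higher and 0.0675% lower. For pellet2 against the lysate the authors' deposited table called 7 of 33 loci, all higher, where 0.82% of all genes were called higher and 0.0203% lower. For the supernatant it called 1 of 33 loci in the authors' deposited table, Snord58b, which was lower. Snord58b was also the only 1 of all 15393 genes called lower (0.0065%), so that share is no separate comparison. For MVH IP against the lysate the authors' deposited table called 0 of 32 loci, where 6.47% of all genes were called higher and 0.176% lower, and for MVH IP against pellet2 it called 4 of 32, all lower, where 0.942% were called higher and 0.19% lower. Those q-values set 1 library of each fraction against another, or against the pooled MVH IP, and compare libraries.

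**Figure D4:**
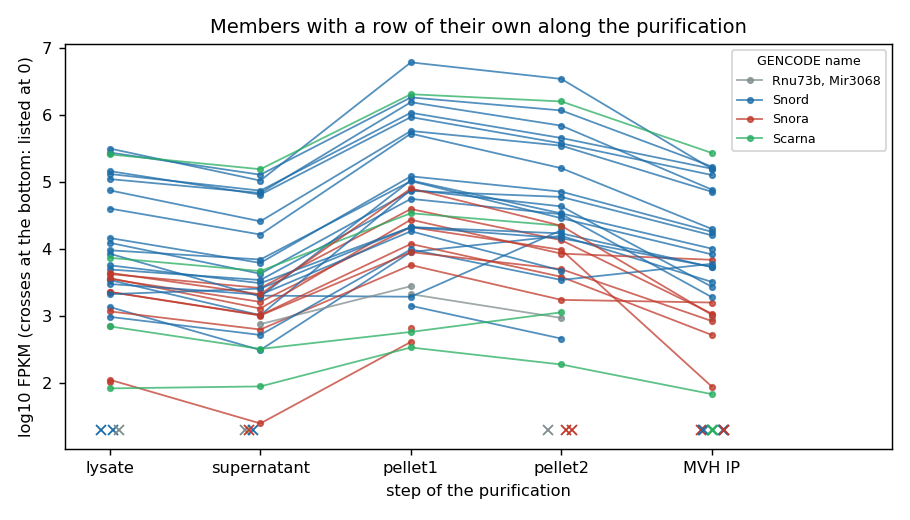
FPKM on a log10 scale of the 35 loci with a row of their own, from lysate to MVH IP, 1 line per locus and colours for the kind of GENCODE name; crosses at the bottom mark conditions listed at 0. Of the lines, 32 peak at pellet1 and 3 at pellet2.

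Snord and Snora loci were both higher in the pellets. In pellet1 all 18 Snord loci (median log2 ratio to the lysate 3.19) and all 9 Snora loci (2.57) were higher. In pellet2, 17 of 18 Snord loci (2.15) and 5 of 7 Snora loci (1.21) were higher. In the MVH IP column of the joint table the Snord loci were level with the lysate (median −0.08, 3 of 17 higher and 3 lower), while 5 of 7 Snora loci were lower (median −1.96). The separate MVH IP and lysate tables, set side by side after seeing the data, did not show this split. There 4 of 16 Snord loci were higher and 3 lower (median −0.07), and 1 of 6 Snora loci was higher and 1 lower (median 0.04). These Snora loci were not the same set as in the joint table. Snora75 and Snora24, both lower in the joint table, lacked a separate MVH IP value and a separate lysate value, respectively. Snora69, at 0 in the joint MVH IP, was the higher one. The split was not compared on the same loci. Against pellet2 in the joint table, 16 of 17 Snord loci (median −1.99) and 5 of 7 Snora loci (median −2.87) were lower. Snora21 of Rpl23 had 4248 FPKM in the lysate, 39475 in pellet1 and 1091 in the MVH IP, and Snora24 of Snhg8 had 4427 FPKM in the lysate, 79904 in pellet1 and 1049 in the MVH IP. Snora34 of Kansl2 differed, with 3699 FPKM in the lysate, 27421 in pellet1 and 6924 in the MVH IP. Snord67 stood out upward, with 979 FPKM in the lysate, 9874 in pellet1 and 6030 in the MVH IP, a log2 ratio of 2.62 to the lysate. It overlaps an exon of its host Ckap5, whose own MVH IP to lysate ratio was 1.57, and their reads cannot be told apart. The Snora loci were 129 to 140 bases long and the Snord loci 64 to 111, and they also differed in level, and the part of length and level was not tested. The 79 other snoRNA symbols of the same table showed like values: 52 of 58 were higher in pellet1 (median 2.90) and 24 of 37 lower in the MVH IP than in pellet2 (median −2.17).

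Several loci were listed at 0 in the MVH IP column of the joint table, among them Snord42a, Rnu73b, Snora69 and Scarna10, although the separate MVH IP table gave them 4315, 2196, 437 and 47.7 FPKM. Of 27 loci with both values, 4 were at 0 in the joint table, and for the other 23 the joint value was 0.752 to 9.72 times the separate one (median 2.52), with a Spearman's rho of 0.93 across loci. A listed 0 can be a failed estimate, and no fold is given for it. In the separate table of the lysate, Snord37 had 97883 FPKM. In the hetMIWI round spermatids Snord8 had 22944 FPKM, close to its 23006 FPKM in the other round spermatids. Snord104 had 76 FPKM in hetMIWI and 20722 FPKM in the other round spermatids. Further loci went both ways, as with Snord90 (1048 against 323 FPKM) and Snord92 (747 against 5183 FPKM). The hetMIWI values come from 1 library in a gene table of its own, and the differences were not tested.

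Host genes and their snoRNAs differed along the purification. Of 88 hosts with a row in the joint table, 10 of 70 with values were higher in pellet1 than in the lysate and 11 lower, against 18.3% and 11.8% of all genes, with a median of −0.32. In the MVH IP 39 of 81 hosts were higher than in the lysate, against 50.4% of all genes, with a median of 0.91. Taken pair by pair, the snoRNA ratio exceeded the host ratio in 23 of 24 pairs in pellet1 (median difference 3.30 log2 units) and 21 of 22 in pellet2 (1.88), and was below it in all 18 pairs for MVH IP against pellet2 (median difference −3.24). Eef2 had 253 FPKM in the lysate, 258 in the supernatant, 116 in pellet1, 145 in pellet2 and 114 in the MVH IP, so it was lower in pellet1 where Snord37 was higher. Nop58 had 33 FPKM in the lysate, 28.3 in the supernatant, 68 in pellet1, 57.6 in pellet2 and 108 in the MVH IP, and so was highest in the MVH IP, where its Snord70 had 71287 FPKM against 573933 FPKM in pellet1. Snhg8, a non-coding host, had 29.4 FPKM in the lysate, 15.6 in the supernatant, 68 in pellet1, 39.2 in pellet2 and 188 in the MVH IP.

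**Figure D5:**
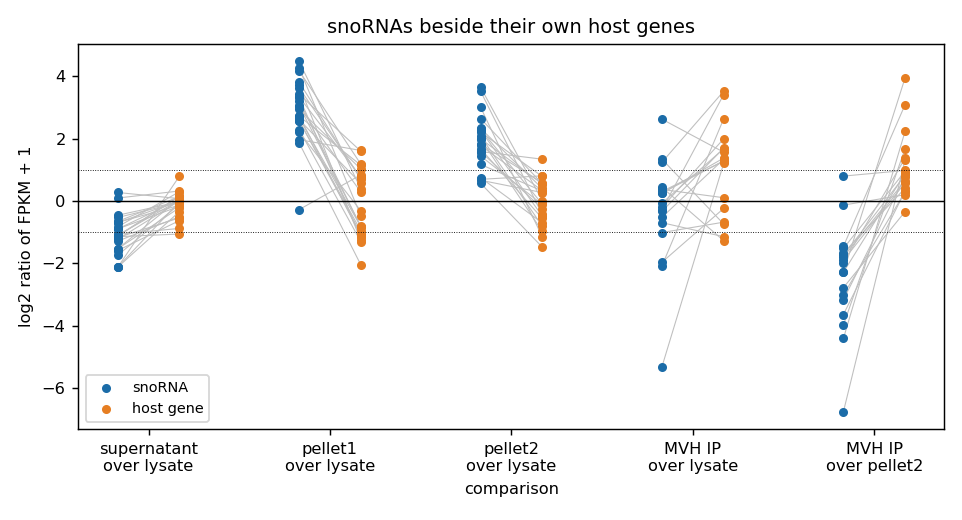
Log2 ratio of FPKM + 1 for snoRNAs (blue) and their own host genes (orange) in 5 comparisons, each grey line joining a snoRNA and its host. In pellet1 the snoRNA lies above the host in 23 of 24 pairs, and for MVH IP over pellet2 it lies below the host in all 18.

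The symbols under which the tables list the loci were in the joint table for 106 of 222 symbols, and the 20 with the highest mean were of 3 kinds. AF357355 and Mir3096, like Rnu73b, name small RNA rows: AF357355 had 4492 FPKM in the lysate, 2647 in the supernatant, 103366 in pellet1 and 61700 in pellet2 and was listed at 0 in the MVH IP, and Mir3096 had 332, 213, 4873 and 690 FPKM and was listed at 0 there too. Genes that contain the locus included the ribosomal protein genes Rpl23, Rps13, Rpl37 and Rpl13a, with Eef2, Snhg8, Ubap2, Nop58 and Ckap5. Log2 ratios of MVH IP to lysate ran from −1.14 (Eef2) to 2.63 (Snhg8) among these genes. The third kind were genes that do not contain the locus, namely Calm2, Fscb, Paip2b, Hyal5, Ip6k2 and Hyou1, beside 5830418K08Rik, an older symbol of the Scarna9 host Cep295. Among them, Ip6k2, an inositol hexakisphosphate kinase gene, had 110 FPKM in the MVH IP and 15.4 FPKM in the lysate (log2 ratio 2.76), and Paip2b, a gene for a translation regulator that binds poly(A)-binding protein, had 158 FPKM in the MVH IP and 31.6 FPKM in the lysate (2.29). Values under these symbols are mRNA levels and not snoRNA levels.

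The mRNAs for proteins of snoRNA particles and their assembly were higher in the MVH IP than in the lysate at a share near that of all genes. Of a list of 26 genes, 25 had rows, and 24 could be compared, of which 5 were higher in pellet1 than in the lysate and 3 lower, 13 were higher in the MVH IP than in the lysate and 1 lower, and 12 were higher in the MVH IP than in pellet2 and none lower. Centred on the median of all genes, 5 were higher in the MVH IP than in the lysate and 5 than in pellet2. The shares of all genes called higher in these comparisons were 18.3%, 50.4% and 40.7%, and those called lower 11.8%, 6% and 4.87%. The median log2 ratio of the list for MVH IP to lysate was 1.24 against 1.01 for all genes. The largest ratios were those of Tgs1, the cap hypermethylase of U3 and spliceosomal RNAs (20.4 FPKM in the MVH IP and 1.03 FPKM in the lysate, 3.40), Shq1, a chaperone of dyskerin (51 FPKM in the MVH IP and 4.43 FPKM in the lysate, 3.26), and Znhit3, an assembly factor of C/D particles (309 FPKM in the MVH IP and 55.4 FPKM in the lysate, 2.46). The smallest were those of Coil, the coilin of Cajal bodies (25.9 FPKM in the MVH IP and 76.1 FPKM in the lysate, −1.52), Znhit6 (4.34 FPKM in the MVH IP and 8.17 FPKM in the lysate, −0.78) and Ruvbl2, an ATPase of the assembly complex (56.5 FPKM in the MVH IP and 76.6 FPKM in the lysate, −0.43). In the authors' deposited table Tgs1, Shq1 and Znhit3 had q-values of 0.0174, 0.0224 and 0.0137 for MVH IP against the lysate. They were the 3 called of 23 listed genes with a q-value, where 6.47% of all genes were called higher.

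Markers of cell types stood beside these results as follows. In the separate gene tables, 7 of 8 round spermatid markers were listed in the MVH IP and 8 of 8 in round spermatids, with sums of 20477 FPKM in the MVH IP and 5664 FPKM in round spermatids. Of 5 spermatocyte markers 4 were listed in each, with sums of 279 FPKM in the MVH IP and 33.3 FPKM in round spermatids. Of 6 Sertoli cell markers, 3 (Wt1, Clu and Ctsl) were listed in the MVH IP, summing to 177 FPKM, and 0 in round spermatids. Sox9, Amh and Rhox5 were listed in neither. Of 4 Leydig cell markers, 3 (Cyp17a1, Star and Insl3) were listed in the MVH IP, summing to 76.6 FPKM, and 0 in round spermatids. Hsd3b6 was listed in neither. Beside these counts, 75.4% of all 3855 genes listed in both gene tables were at least 2-fold higher in the MVH IP. Of the 112 host genes, 58 were listed in the MVH IP and 38 in round spermatids. Marker sums and listings were not corrected for this general difference. The MVH IP was made from whole tubules and the round spermatids were sorted, and the part of other cell types in the snoRNA ratios was not tested.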

How the data were processed

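RNA-seq libraries (14, in 9 groups) were made with not-so-random primers from cDNA cut at 350 to 500 bp, per the labels' protocols. TopHat, Cuffdiff and mm9 are named in the submitters' processing notes. The deposited values are FPKM, 1 per feature and condition with replicates pooled by the authors, and the joint table also holds the authors' q-value for each pair of conditions. The non-coding tables list values from 5 FPKM. Positions come from the MVH IP table where it has the locus, since the round spermatid table gives wider intervals for many. Repeated rows (16 identifiers) were identical.

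Loci were matched by Ensembl identifier, and the highest value was kept. Ratios were log2((a + 1)/(b + 1)), called at 2-fold. In the joint table a mean of 1 FPKM and values above 0 in both conditions were required. GENCODE M21 (GRCm38) gave names, hosts and sequences by identifier, with no conversion of coordinates. Lengths equalled those in the files for 158 sequences and differed for 5. Identity was 1 minus edit distance over the longer length (edlib 1.3.9.post1). With 1 deposited value per condition no test was possible. The code that makes the calls was tested on simulated data. Members, lists and classes were chosen with earlier results of these data known. Loci named were the 10 highest in each table, the 5 largest and 5 smallest ratios, the 20 highest table symbols in the joint table, and 3 extremes each way of the list of particle proteins; Snord71, the locus carrying Gm2372, loci in the paragraphs on hosts, copies, U3 and the array, and the joint rows described beyond these, were chosen after their values were seen. Alternatives changed the pseudocount, filters, centring, symbol matching and repeated loci. Tables for piRNAs, transposons and small RNAs were not used here. Some genes that the rule for named loci covers are not reported here.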

Additional observations from a re-analysis of the deposited data

How the results depend on the processing

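No paired analysis was possible because each condition has 1 deposited value and no result comes from a test, and for the same reason no library could be left out. Of 82 alternative counts for 18 results, 69 stayed within 1.5 times the reported one. Centring on the median of all loci gave 37 loci higher in the MVH IP than in round spermatids (63 without) and 25 lower (10 without). The 10 lower loci became 5 with a pseudocount of 10, 4 with at least 10 FPKM in both tables, and 4 without the chromosome 7 array, an alternative chosen after seeing the data. In the joint table, centring on the median of all genes gave 16 loci lower in the MVH IP than in the lysate (8 without), 16 hosts higher (39 without) and 5 particle protein genes higher (13 without). Against pellet2 it gave 12 hosts (29 without) and 5 particle protein genes (12 without) higher in the MVH IP. Keeping genes listed at 0, also chosen after seeing the data, gave 14 loci lower in the MVH IP than in the lysate. A pseudocount of 0.1 gave 11 hosts higher in pellet2 than in the lysate (7 with 1). The counts of loci higher in pellet1 (31 to 34) and pellet2 (25 to 27), lower in the supernatant (17 to 19) and lower in the MVH IP than in pellet2 (23 to 29) kept within 1.5 times under all 5 alternatives. Library depths are unknown, so the counting error of low values cannot be given.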
